A study of Mus musculus with 8 samples.

Results

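The forkhead factors Foxo1 and Foxo3 and 8 genes tied to FOXO or insulin signalling, namely Depp1, Ccng2, Irs2, Insr, Pik3ip1, Txnip, Klf9 and Pdk4, were followed in mouse IMCD3 cells with and without serum. The 10 genes were chosen by name, with earlier results of these data known. Every non-control probe whose array name, or current symbol or synonym through its accession, matched one of them was taken. Of the 10 genes, 9 had a probe, with 15 probes between them. Irs2 had no matching probe and is not reported. For 8 of the 10 a probe was well above background on all arrays of at least 1 group, and these 8 were among the 16067 genes tested. Foxo3 was the gene left out for low signal.

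IMCD3 is an established mouse epithelial line derived from collecting ducts of the inner renal medulla. The starved cells spent 48 h in medium without fetal calf serum (FCS), which is used to make them grow cilia. The unstarved cells were kept in medium with 10% FCS, were replated at a 1:10 dilution on the day before harvest and had not reached confluence, and the effects of serum and of cell density therefore cannot be told apart. All cells are of 1 line, and the medium is DMEM with F12, Glutamax and antibiotics in both groups. There were 4 starved and 4 unstarved samples on 4 Agilent 2-colour arrays, each array holding 1 of each, from 2 replicates that the series text calls biological. By the sample titles arrays 1 and 3 are replicate 1 and arrays 2 and 4 are replicate 2.

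FOXO proteins are transcription factors that insulin and growth factors hold in check. When the insulin receptor or a related receptor is active, phosphoinositide 3-kinase (PI3K) and AKT are switched on, AKT phosphorylates FOXO proteins, and these leave the nucleus bound to 14-3-3 proteins. When the signal falls, FOXO proteins return to the nucleus and raise genes of growth arrest, autophagy and fuel use, together with genes of the insulin pathway itself such as Insr and Irs2. RNA levels of FOXO genes say nothing of this movement, which was not measured here.

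In starved cells 7 of the 8 tested genes were higher, none was lower, and Pdk4 did not pass the test. The largest difference was that of Depp1, which was 7.03-fold higher, followed by Ccng2 at 3.31-fold. Txnip, Insr, Foxo1, Klf9 and Pik3ip1 were 1.53-fold to 1.88-fold higher. Among all 16067 genes tested, 31.4% passed in either direction and 18.1% passed as higher in starved cells. In bulk RNA, more cells of a kind and more RNA per cell cannot be told apart. The median log2 ratio, starved over unstarved, was 0.78 over the 8 genes and 0.01 over all genes tested. A call means an adjusted p below 0.05 from limma's moderated test on the 2 replicate ratios, with Benjamini-Hochberg adjustment over all genes. Each SE of a log2 ratio is the moderated one of this fit. It draws mostly on the spread over all genes and does not measure the spread of a gene's own 2 replicates.

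The promoters of the 4 genes that hold a forkhead-type motif and were higher in starved cells are shown because FOXO proteins are known to bind such sequences. They are the 250 bases before the annotated start from RefSeq, build GRCm38.p6, all on the plus strand, 5′ to 3′, with the motif in capitals. The intervals are chr6:116650434-116650683 for Depp1, chr5:93267323-93267572 for Ccng2, chr3:96557707-96557956 for Txnip and chr19:23140976-23141225 for Klf9. 
Depp1: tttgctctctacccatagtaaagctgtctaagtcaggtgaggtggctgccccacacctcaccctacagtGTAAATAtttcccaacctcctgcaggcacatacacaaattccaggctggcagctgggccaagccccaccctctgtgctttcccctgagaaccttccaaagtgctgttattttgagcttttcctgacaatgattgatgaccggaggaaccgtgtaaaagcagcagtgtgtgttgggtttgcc
Ccng2: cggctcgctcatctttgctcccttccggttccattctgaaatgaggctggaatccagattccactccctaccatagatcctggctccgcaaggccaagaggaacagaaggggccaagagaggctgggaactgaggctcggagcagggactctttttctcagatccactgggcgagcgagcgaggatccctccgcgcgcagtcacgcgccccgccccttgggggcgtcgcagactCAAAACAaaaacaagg
Txnip: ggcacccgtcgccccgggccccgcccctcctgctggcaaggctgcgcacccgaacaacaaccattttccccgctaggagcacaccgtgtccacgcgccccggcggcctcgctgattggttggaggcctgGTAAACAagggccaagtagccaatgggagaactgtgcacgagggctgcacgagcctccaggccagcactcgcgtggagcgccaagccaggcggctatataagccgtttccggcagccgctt
Klf9: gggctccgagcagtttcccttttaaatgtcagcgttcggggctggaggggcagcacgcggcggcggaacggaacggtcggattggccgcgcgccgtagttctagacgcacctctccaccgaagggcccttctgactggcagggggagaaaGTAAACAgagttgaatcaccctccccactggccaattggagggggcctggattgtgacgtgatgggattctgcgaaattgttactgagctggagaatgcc

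Of the 10 genes, 9 had a promoter entry, and Insr had none. The motif GTAAACA, known as the DAF-16 family element, was searched on both strands and was found in Txnip, 121 bases before the start, and in Klf9, 100 bases before it. It was present in 3.17% of 32851 mouse promoters of the same length. The motif CAAAACA, known as an insulin response sequence, was found 16 bases before the start in Ccng2 and, as TGTTTTG, 37 bases before the start in Irs2, against 5.56% of all promoters. A looser forkhead letter pattern, GTAAANA, which contains the first motif, was also found in Depp1 as GTAAATA, 181 bases before the start, and occurred in 10.9% of all promoters. The E-box letters CACGTG were found in Irs2 alone of the 9, 44 bases before the start, against 6.02% of all promoters. Only these exact letters were searched, so imperfect or paired forms of the E-box were not covered in any promoter. Foxo1, Foxo3, Pik3ip1 and Pdk4 held none of these letters in this window. A match is a description of the letters, and binding was not measured. The promoters shown were picked from genes higher in starved cells and pool different patterns. The share of all promoters with any of these patterns was not computed.

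Foxo1, the FOXO gene best known for its part in insulin action, was bright in both groups. Its normalised signal, on a log2 scale on which 1 unit is a doubling, was 14.47, 14.59, 14.57 and 14.48 in the starved samples of arrays 1 to 4, against 13.84, 13.83, 13.93 and 13.75 in the unstarved samples. All starved samples lay above all unstarved ones, with a gap of 0.55 between the groups. Foxo1 averaged 14.53 ± 0.01 in starved cells and 13.84 ± 0.06 in unstarved cells (SD, n = 2 replicates each). The log2 ratio was 0.69 ± 0.12 (SE), a 1.62-fold difference, with an adjusted p of 4.19e-04 in the limma fit. The reported probe lies at chr3:52434190-52434249 on the plus strand of build mm8, the build of the array's own annotation. The second, dimmer Foxo1 probe starts 3106 bases further on and gave a log2 ratio of 0.50 (adjusted p = 0.00683 in limma's fit over 24610 probes).

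Foxo3, the second FOXO gene, could not be assessed at this signal. The probe at chr10:41874361-41874420 (mm8, minus strand; listed as Foxo3a) was well above background on 2 of 4 arrays in starved samples and on 2 of 4 in unstarved samples. Its signal was 7.22, 7.42, 7.01 and 7.15 in starved cells, against 6.90, 7.50, 6.91 and 7.11 in unstarved cells, and the groups overlapped. The other probe, at chr10:41869156-41869215, was well above background in no sample of either group. No fold is given for Foxo3.

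Of the remaining FOXO genes, Foxo6 was higher in starved cells, with a log2 ratio of 0.97 ± 0.13 (adjusted p = 3.16e-05, limma), while Foxo4 had a ratio of 0.04 ± 0.12 (adjusted p = 0.847). Foxo4 was well above background on 3 of 4 arrays in unstarved samples. These genes belong to a list of 23 that also holds the proteins that carry, modify or degrade FOXO factors. Of the 23 tested genes 1 was higher, 3 were lower and 19 did not pass, with a median log2 ratio of 0.03, where 18.1% of all genes were higher and 13.4% lower. The lower genes were Prmt1, an arginine methyltransferase that acts on FOXO1, at -0.50, Skp2, a subunit of the ubiquitin ligase that targets FOXO1, at -0.47, and Ywhae, a 14-3-3 protein, at -0.40. The 14-3-3 gene Ywhaz, at -0.22, and the deacetylase gene Sirt1, at 0.19, did not pass the test. Their dimmer probes gave -0.45 and 0.31. The 14-3-3 gene Sfn, at 0.03, did not pass, but its dimmer probes gave -0.44 and -0.41. Stk4, at -0.16, did not pass either, but its other probes gave -0.54 to -0.52. When each gene's probes were averaged, 1 of the 23 was higher and 5 were lower, with a median of -0.01.

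Insr, which encodes the insulin receptor, had probes that gave different answers. The reported, brighter probe lies at chr8:3151667-3151726 (mm8, minus strand). The array lists it as D630014A15Rik, a name that RefSeq gives as a synonym of Insr. Its signal was 10.64, 10.78, 10.73 and 10.73 in starved cells, against 9.90, 9.80, 9.93 and 9.76 in unstarved cells, so that the groups lay apart by 0.71. It averaged 10.72 ± 0.05 in starved cells and 9.85 ± 0.09 in unstarved cells (SD, n = 2 each), a log2 ratio of 0.87 ± 0.13 (SE; adjusted p = 5.45e-05, limma).

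The probe designed on the Insr reference transcript, at chr8:3159473-3159532, starts 7806 bases away. Its signal was 7.16, 7.21, 7.20 and 7.33 in starved cells, against 7.23, 7.07, 7.19 and 7.17 in unstarved cells, and the groups overlapped. Its log2 ratio was 0.06 (adjusted p = 0.761), and it was well above background on 4 of 4 arrays in starved and 3 of 4 in unstarved samples. Its signal was low in every sample, where the background correction draws ratios towards 0. How far the 2 probes truly differ is therefore uncertain. The ratios of the 2 probes differed by 0.79 to 0.84 on each of the 4 arrays. Over the 3958 genes with 2 tested probes the median difference was 0.13, and 2.0% differed by as much as the Insr pair. The increase reported for Insr therefore rests on the probe named through a synonym, and it was absent from the fit that named no probe through synonyms, where 6 of 8 genes passed against 31.3% of all genes.

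Pik3ip1, which encodes a membrane protein that restrains the catalytic subunit of PI3K, was modestly higher in starved cells. Its signal was 9.76, 9.84, 9.69 and 9.84 in starved cells, against 9.14, 9.33, 9.04 and 9.19 in unstarved cells. The groups did not overlap, with a gap of 0.37. It averaged 9.78 ± 0.08 in starved cells and 9.17 ± 0.12 in unstarved cells (SD, n = 2 each), a log2 ratio of 0.61 ± 0.12 (SE), or 1.53-fold, with an adjusted p of 0.00120 (limma). This probe lies at chr11:3242107-3242166 (mm8, plus strand), and the dimmer Pik3ip1 probe, which starts 8433 bases before it, gave a log2 ratio of 0.38 (adjusted p = 0.0337).

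**Figure D1:**
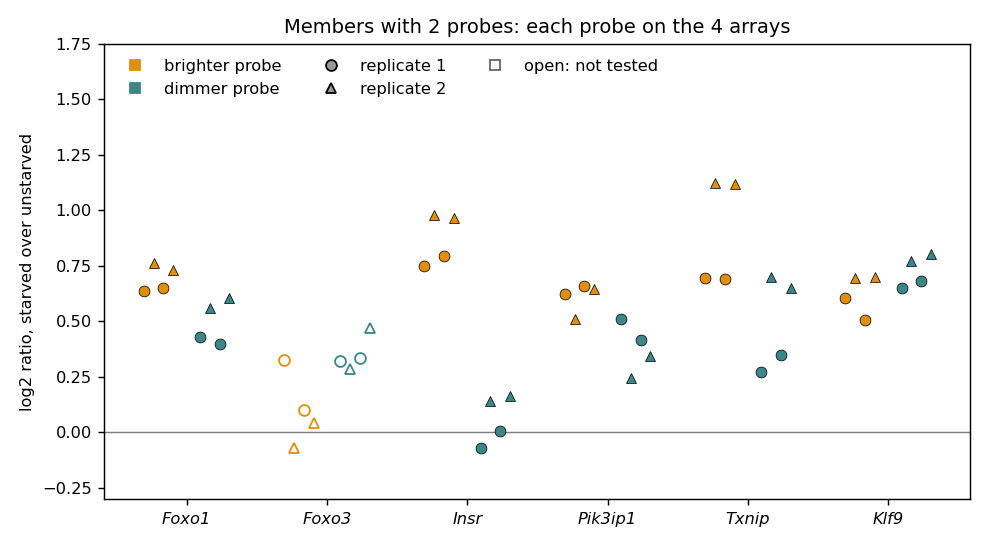
Log2 ratio, starved over unstarved, of each probe of the 6 genes that have 2 probes, on each of the 4 arrays; circles are replicate 1, triangles replicate 2, orange the brighter and green the dimmer probe, and open symbols probes not tested. The dimmer Insr probe lies between -0.07 and 0.17 and the brighter one between 0.75 and 0.98, while both probes of Foxo1, Pik3ip1, Txnip and Klf9 lie above 0 on every array.

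The path from the insulin receptor to AKT was described with a list of 36 other genes, all of them tested. In starved cells 8 were higher, 3 were lower and 25 did not pass, with a median log2 ratio of 0.09, where 18.1% of all genes were higher and 13.4% lower. When each gene's probes were averaged, 5 were higher and 3 lower. The gene furthest from 0 was Trib3, a pseudokinase gene whose protein binds AKT, at 1.94 ± 0.12 (adjusted p = 5.72e-09, limma), and its second probe gave 1.58. Among PI3K subunits the regulatory Pik3r2 was higher at 0.67 and the catalytic Pik3ca at 0.43, while the catalytic Pik3cd and Pik3cb were lower at -0.72 and -0.64.

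Several genes at the core of the path did not pass the test. The insulin receptor substrate gene Irs1 had a log2 ratio of -0.15 ± 0.13, with -0.51 for its dimmer probe, Akt1 of -0.08 ± 0.12 and Akt2 of -0.03 ± 0.15. The dimmer probes gave -0.32 for Akt1 and -0.24 for Akt2. Akt2 was at -0.39 in replicate 1 and 0.32 in replicate 2. The regulatory PI3K subunit gene Pik3r1 was at 0.03 ± 0.13. Probes disagreed for the IGF1 receptor gene Igf1r, with 4 probes between -0.62 and 0.22, and its direction is uncertain.

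Depp1, a FOXO-induced gene linked to autophagy and control of reactive oxygen, stood out among the targets. Its single probe, listed as 8430408G22Rik at chr6:116618165-116618224 (mm8, plus strand), gave 12.55, 12.24, 12.56 and 12.28 in starved cells, against 9.56, 9.70, 9.41 and 9.71 in unstarved cells. The groups were separated by 2.54. It averaged 12.41 ± 0.21 in starved cells and 9.59 ± 0.15 in unstarved cells (SD, n = 2 each), a log2 ratio of 2.81 ± 0.14 (SE; adjusted p = 4.32e-10, limma). Its ratio ranked 7 among all 16067 genes from the highest down.

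The replicates differed in the size of the Depp1 response. The log2 ratio was 3.07 in replicate 1 and 2.56 in replicate 2, a gap larger than that of 92.9% of genes. By the labels replicate 1 always carried starved RNA in Cy5 and replicate 2 in Cy3, so dye and replicate cannot be told apart. By Euclidean distance over the log2 ratios of the 4 arrays, the genes most like Depp1 were Bdh2, with 3.16 in replicate 1 and 2.84 in replicate 2, Egr2, with 3.12 and 2.87, and Chst1, with 2.76 and 2.71. Their distances were 0.45, 0.47 and 0.49, and the likeness is a description over 4 arrays of 2 replicates.

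Ccng2, which encodes cyclin G2, an unusual cyclin that is high in resting cells and slows the cycle, was the gene with the second highest ratio. Its probe at chr5:94351052-94351111 (mm8, plus strand) gave 15.26, 15.04, 15.38 and 14.86 in starved cells, against 13.21, 13.65, 13.30 and 13.48 in unstarved cells. The lowest starved sample lay 1.21 above the highest unstarved one. Ccng2 averaged 15.13 ± 0.26 in starved cells and 13.41 ± 0.22 in unstarved cells (SD, n = 2 each). The log2 ratio was 1.72 ± 0.15 (SE; adjusted p = 1.97e-07, limma), with 2.06 in replicate 1 and 1.39 in replicate 2, a gap larger than that of 97.7% of genes. Its relative Ccng1, a p53 target, went the other way at -1.10 ± 0.13 (adjusted p = 5.50e-06).

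Txnip encodes an arrestin-family protein that binds thioredoxin and limits glucose uptake. Its brighter probe, at chr3:96646629-96646688 (mm8, plus strand), gave 14.54, 14.75, 14.41 and 14.80 in starved cells, against 13.84, 13.62, 13.72 and 13.68 in unstarved cells. The groups lay 0.57 apart. Txnip averaged 14.62 ± 0.21 in starved cells and 13.72 ± 0.09 in unstarved cells (SD, n = 2 each), a log2 ratio of 0.91 ± 0.13 (SE; adjusted p = 7.02e-05, limma). The ratio was 0.69 in replicate 1 and 1.12 in replicate 2. The dimmer probe gave a smaller ratio of 0.49 (adjusted p = 0.0100).

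Of 11 tested genes for thioredoxins, their reductases, arrestin-domain proteins and the glucose sensor MondoA with its partners, 3 were higher, 1 was lower and 7 did not pass, with a median of 0.05, against 18.1% higher and 13.4% lower over all genes. The arrestin-domain genes Arrdc2 and Arrdc3 were higher at 0.87 ± 0.12 (adjusted p = 4.72e-05) and 0.75 ± 0.12 (adjusted p = 2.19e-04), and Arrdc1 at 0.43. Arrdc4, which like Txnip is known as a MondoA target, was lower at -0.63 ± 0.12 (adjusted p = 0.00102, limma), and its second probe gave -0.84. The gene for MondoA, Mlxip, was at -0.19 and did not pass.

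Klf9, a Krüppel-like factor gene that glucocorticoids are known to raise, had a modest increase. Its signal was 11.11, 11.15, 10.97 and 11.23 in starved cells, against 10.50, 10.46, 10.46 and 10.53 in unstarved cells, with a gap of 0.44. It averaged 11.11 ± 0.11 in starved cells and 10.49 ± 0.01 in unstarved cells (SD, n = 2 each), a log2 ratio of 0.63 ± 0.12 (SE; adjusted p = 0.00102, limma). The probe lies at chr19:23231944-23232003 (mm8, plus strand), and the dimmer probe, 801 bases further on, gave a ratio of 0.73 (adjusted p = 3.30e-04). Of 6 tested genes known to be raised by glucocorticoids, 3 were higher and 3 did not pass, against 18.1% higher over all genes. The higher ones were Tsc22d3 at 0.99, Per1 at 0.62, with 0.19 in replicate 1 and 1.04 in replicate 2, and Cebpd at 0.38. Those that did not pass were Fkbp5 at -0.07, Dusp1 at -0.21 and Sgk1 at 0.17. Tsc22d3 is also counted among the other FOXO targets below, and Sgk1 in the insulin receptor to AKT list above.

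Pdk4, a kinase gene of fuel choice whose protein shuts off pyruvate dehydrogenase and which FOXO1 raises in fasted muscle and liver, was the exception among the 8. Its probe at chr6:5433441-5433500 (mm8, minus strand) gave 8.41, 8.77, 8.50 and 8.56 in starved cells, against 8.66, 8.96, 8.61 and 8.83 in unstarved cells. The groups overlapped, although each starved sample was below the unstarved sample on its own array. Pdk4 averaged 8.56 ± 0.15 in starved cells and 8.77 ± 0.18 in unstarved cells (SD, n = 2 each), a log2 ratio of -0.21 ± 0.12 (SE; adjusted p = 0.212, limma). Of 9 tested genes for the pyruvate dehydrogenase complex and its regulators 1 was higher, 3 were lower and 5 did not pass, against 18.1% higher and 13.4% lower over all genes. The higher one was the sister kinase Pdk1 at 0.75 ± 0.13, and the lower ones were Pdha1 and Dlat, subunits of the complex, at -0.54 and -0.50, and Pdk3 at -0.43, while Pdk2, at 0.30, did not pass.

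**Figure D2:**
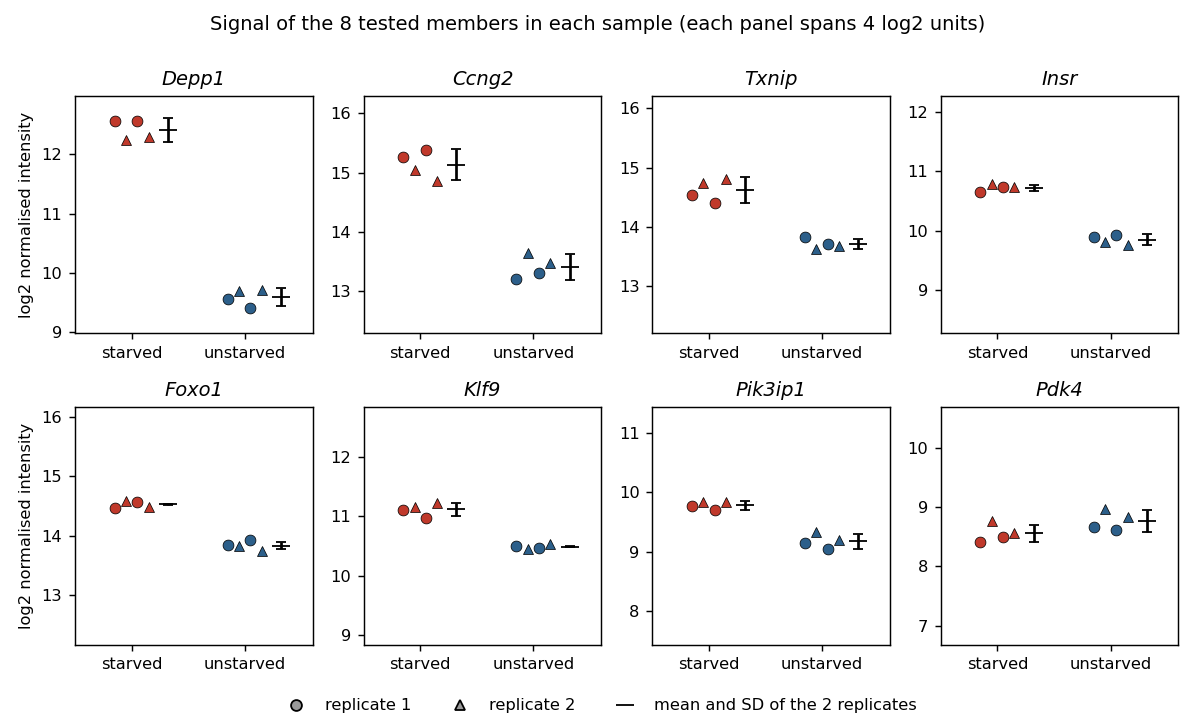
Normalised log2 intensity of the 8 tested genes in each sample, starved on the left and unstarved on the right, with every panel spanning 4 log2 units; circles are replicate 1, triangles replicate 2, and the black marks give the mean and SD of the 2 replicates. The starved samples lie above the unstarved ones without overlap in 7 panels and overlap with them for Pdk4.

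All 4 starved levels lay above all 4 unstarved levels for 7 of the 8 genes, against 28.3% of all genes tested. In the order of the log2 ratios, Depp1 was above Ccng2 by 1.01 in replicate 1 and 1.17 in replicate 2. Ccng2 was above Txnip by 1.37 in replicate 1 and 0.27 in replicate 2. The 5 genes below them were not separated as clearly: the order of Txnip and Insr, and that of Klf9 and Pik3ip1, differed between the replicates.

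**Figure D3:**
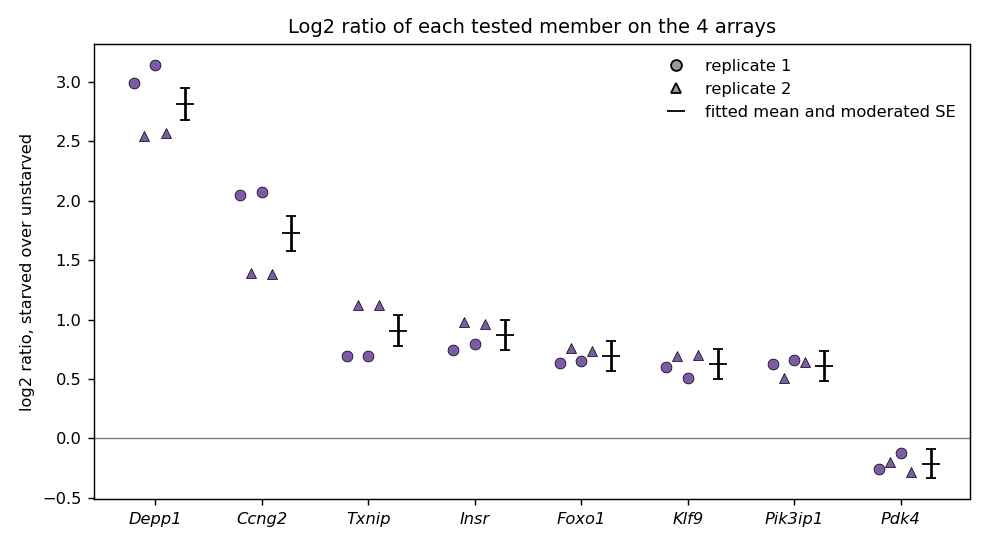
Log2 ratio, starved over unstarved, of each tested gene on the 4 arrays; circles are replicate 1, triangles replicate 2, and the black mark is the fitted mean with its moderated SE. Depp1 and Ccng2 stand highest and have higher ratios in replicate 1, Txnip has higher ratios in replicate 2, and Pdk4 is below 0 on all 4 arrays.

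**Figure D4:**
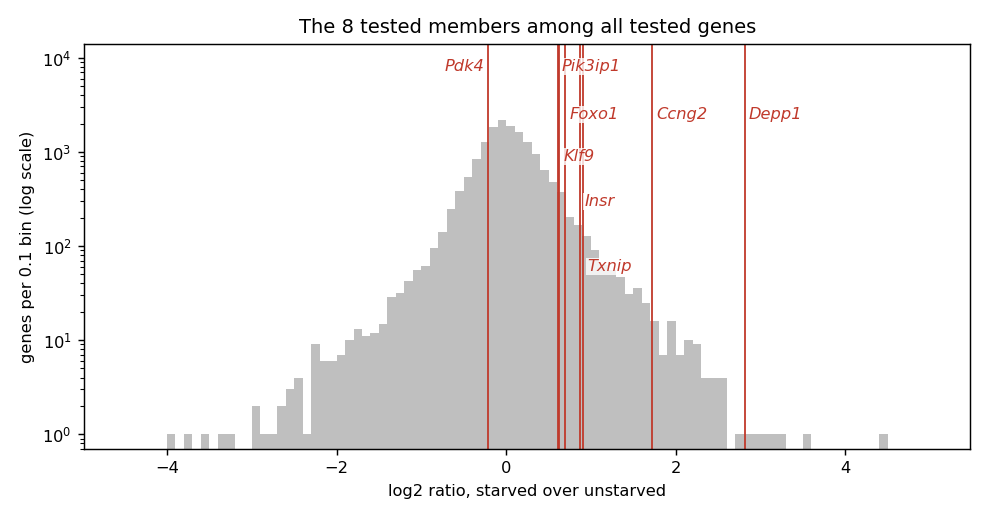
Number of genes per bin of the log2 ratio, starved over unstarved, over all 16067 tested genes, on a log scale, with red lines at the 8 genes. Depp1, at 2.81, lies near the upper end, the ratios of Txnip, Insr, Foxo1, Klf9 and Pik3ip1 lie between 0.61 and 0.91, and Pdk4 lies at -0.21.

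A further list held 38 genes known as FOXO targets in various tissues, none of them among the 10. The list was chosen with earlier results of these data known, so its counts are a description and not independent support. Of these, 33 were tested, Fasl, Tnfsf10, Trim63 and G6pc were not well above background, and Pck1 had no matching probe. In starved cells 22 of the 33 were higher, 3 were lower and 8 did not pass, with a median log2 ratio of 0.57, against 18.1% higher and 13.4% lower over all genes. The highest were Igfbp1, which encodes an insulin-repressed binding protein for insulin-like growth factors, at 1.68 ± 0.12 (adjusted p = 3.56e-08, limma), and Gabarapl1, an autophagy gene, at 1.61 ± 0.12 (adjusted p = 5.28e-08). Ppargc1a, which encodes a coactivator of mitochondrial genes, and Hbp1, which encodes a repressor of cell cycle genes, were both at 1.55 ± 0.12 (adjusted p = 7.85e-08 and 8.62e-08).

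Sorted by role, a sorting made after the values were seen, the counts stood beside 18.1% higher over all genes, and differences between roles were not tested. Of 8 genes of growth arrest 7 were higher, among them Btg1 at 1.32 and Cdkn1b, which encodes the cyclin-dependent kinase inhibitor p27, at 0.87 ± 0.14, while Bcl6, at -0.14, did not pass. Of 8 tested genes of autophagy and protein breakdown 7 were higher, among them the mitophagy receptor gene Bnip3 at 1.31, the ubiquitin ligase gene Fbxo32 at 1.01, Map1lc3b at 0.96, with 0.35 for its dimmer probe, and the kinase gene Ulk1 at 0.87. Of 6 tested antioxidant genes, Sesn1 was higher at 0.78, the mitochondrial peroxidase gene Prdx3 was lower at -0.44, and Sod2, at 0.14, Cat, at 0.09, Sesn3 and Selenop did not pass.

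Of the cell death genes, Bcl2l11, at 0.61, and Bbc3, at 0.62, were higher and Pmaip1, at -0.47, was lower. The other 2 Bcl2l11 probes gave 0.14 and -0.17, so its direction is uncertain. The remaining lower gene of the list was Cav1, which encodes the membrane scaffold caveolin-1, at -1.21. Among genes of signalling and transcription, the receptor gene Erbb3 was higher at 0.85, and its dimmer probes gave 0.25 to 0.43.

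**Figure D5:**
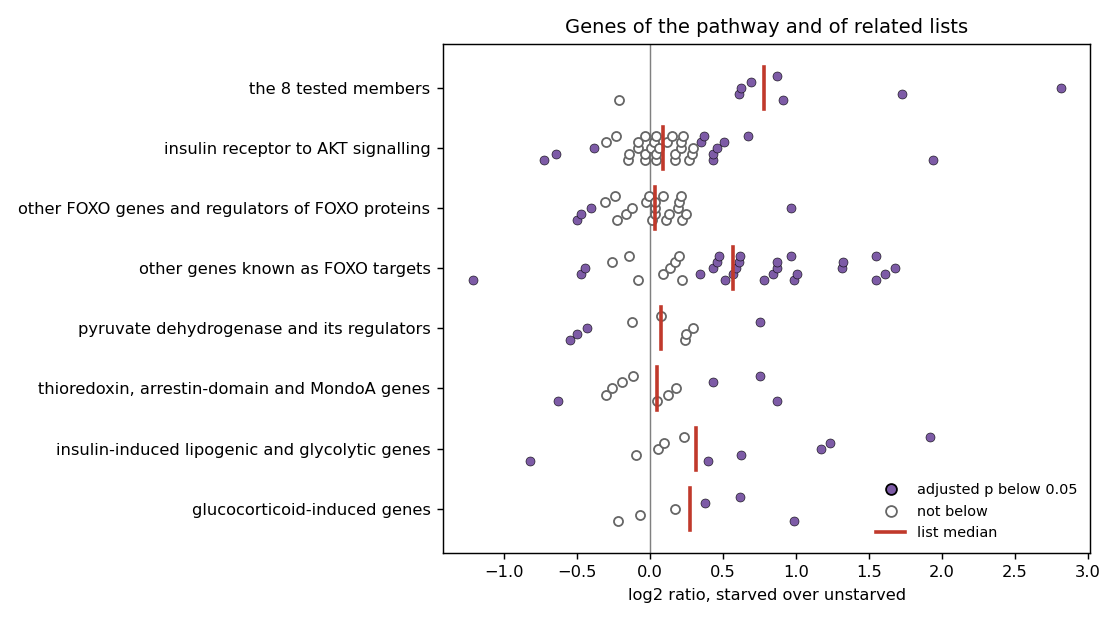
Log2 ratio, starved over unstarved, of each tested gene in the 8 tested genes and 7 related lists; filled points have an adjusted p below 0.05, open points do not, and the red bar is the median of the list. The medians are 0.78 for the 8 genes, 0.57 for other FOXO targets and 0.09 for insulin receptor to AKT signalling.

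Genes that insulin raises through lipogenic and glycolytic programmes were examined beside these. Of 10 tested, 5 were higher, 1 was lower and 4 did not pass, with a median of 0.31, against 18.1% higher and 13.4% lower over all genes. The desaturase genes Scd2 and Scd1 were higher at 1.92 ± 0.13 (adjusted p = 8.19e-09) and 1.17 ± 0.12 (adjusted p = 1.91e-06), and Srebf1, which encodes the lipogenic factor SREBP-1, at 1.23 ± 0.13 (adjusted p = 1.42e-06, limma). The hexokinase gene Hk2 was lower at -0.82.

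With median centring of each array in place of the loess step, Depp1, at 2.78, and Ccng2, at 1.53, still passed, where 1.55% of all genes did, and the other 5 did not: the ratios were 0.71 for Txnip, 0.85 for Insr, 0.50 for Foxo1, 0.59 for Klf9 and 0.59 for Pik3ip1, with adjusted p between 0.721 and 1.00. In that fit 3 of the 33 other FOXO targets passed, and 1 of the 36 genes of the insulin receptor to AKT list. When the arrays were paired across the dyes, or a dye term was fitted over 4 arrays, all 8 genes passed, with Pdk4 lower (adjusted p between 4.50e-04 and 0.00332). In these 3 fits 89.0%, 87.8% and 88.4% of all genes passed. By the labels, these fits leave the difference between the replicates out of the error, so their p-values reflect the spread between arrays only.

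Markers of epithelial cells and of other cell types were read in the same samples, although all cells are of 1 epithelial line. Of 21 epithelial and collecting duct markers 19 were tested, 6 of them higher and 4 lower, against 18.1% higher and 13.4% lower over all genes. The summed signal of the 19 was 471859 to 608727 in starved and 744035 to 792840 in unstarved samples. Without the bright keratin genes Krt7, Krt8, Krt18 and Krt19 the sum was 82498 to 88938 in starved and 55835 to 57175 in unstarved samples. The claudin gene Cldn8, at 4.49, the sodium channel subunit gene Scnn1g, at 2.30, and the factor gene Ehf, at 1.52, were higher. The keratin genes Krt7, Krt8 and Krt19 were lower. Gata2 was at least 2.10-fold lower in starved cells, where it was not well above background. Aqp2, at -0.19, and Aqp3, at -0.21, did not pass, and Aqp4 and Scnn1b were not well above background. Of 8 leukocyte markers 6 were tested, with a summed signal of 9128 to 9963 in starved and 4212 to 4317 in unstarved samples. Without Csf1r, which carried most of it, the sum was 1450 to 1595 in starved and 1245 to 1436 in unstarved samples. Csf1r, at 1.44, with 0.43 and 1.20 for its dimmer probes, and Aif1, at 1.49, with 0.87 for its dimmer probe, were higher. Ptprc, at -0.50, was lower, but it was well above background on only 2 of 4 arrays in starved samples. Itgam and Adgre1 were not well above background.

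Of 9 fibroblast markers 3 were tested, with a summed signal of 569 to 639 in starved and 959 to 1076 in unstarved samples. Col1a1 was lower at -1.01, Postn was at least 1.91-fold lower in starved cells, where it was not well above background, and Col1a2 did not pass. Of 8 endothelial markers only Flt1 was tested, at -1.02, with 1009 to 1211 in starved and 2031 to 2275 in unstarved samples. The part of these markers in the results above was not tested.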

How the data were processed

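RNA of 4 starved and 4 unstarved samples was measured on 4 Agilent 2-colour arrays, all on 1 slide and in 1 scan per the file headers. Each array is deposited as 2 samples with identical files, from which the channel matching the labelled dye was used. Scanned images had been quantified with Agilent Feature Extraction 9.5.3.1, per the submitters' processing notes. The deposited intensity values used here, each spot's mean signal and local background, had been neither corrected nor dye-normalized. The deposited processed intensity was background-subtracted and dye-normalized with linear and LOWESS steps, per the file headers. The authors' deposited value table holds linear intensity values, with medians of 74.7 to 77.1 and a lowest value of 15. Above that floor it followed the processed signal times 0.753 to 0.806, with log ratios correlated at 1.00, and why the authors scaled it so stays unknown.

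The intensities were background-corrected (normexp, offset 50), normalized by loess within each array and turned to log2 starved over unstarved in limma 3.58.1 under R 4.3.3. Control and flagged spots had weight 0 in the loess. Spots of a probe were averaged, 24610 of 41174 probes were kept because 1 group or both had them well above background on all 4 arrays, and the brightest probe stood for its gene. The 2 arrays of a replicate were averaged before lmFit and eBayes, which left 1 residual degree of freedom and a prior of 15.1. Single-channel levels were taken after Aquantile scaling between arrays. Where 1 group was dim on all arrays, the fold is a bound against the lowest signal among probes well above background. Having only 2 replicates limits the precision. Between 24540 and 25858 probes were well above background per channel.

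Replicates follow the sample titles. A dye swap of each pair is described in the series text but is not what the labels give, so other array pairings were run. Log ratios correlated at 0.99 between arrays of 1 replicate and at 0.82 to 0.83 between replicates. Arrays of 1 replicate also carry starved RNA in the same dye, so this contrast cannot test which arrays are replicates. Deviations of same-numbered samples correlated at -0.30, but these samples carry opposite dyes, so this cannot test pairing. Probes were named through RefSeq accessions (24496), symbols (6234), synonyms (2386) or, failing these, the array name (8058), which can be old. Probe coordinates are those of the array annotation, and exon or UTR annotation of that build was not used. The members and lists were chosen with earlier results of these data known. Named are the members, up to 4 called genes furthest from 0 per list, genes fixed by name, of which 2 are not reported here, and the 3 genes most like Depp1. Other genes given in the text were picked after their values were seen.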

Additional observations from a re-analysis of the deposited data

How the results depend on the processing

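All 7 calls among the 8 genes held with a normexp offset of 10, Agilent's processed signals, the deposited value table, both other filters on dim probes, averaging a gene's probes, and each array left out. With median centring 2 of the 8 passed, and 249 of all genes in place of 5053. With arrays 1 and 2 and arrays 3 and 4 taken as replicates 14294 genes passed, with arrays 1 and 4 and arrays 2 and 3 14099, and with a dye term over 4 arrays 14198. All 8 genes passed in these 3 fits, Pdk4 as lower, but by the labels their error leaves out the difference between the replicates. The replicate block as a random effect gave 5365 genes and 7 of the 8, and a crossed replicate block, added after seeing the data, 7599 and 7. The replicate block changed no call among the 8, and of the other named genes the random block added Pdk2 (adjusted p = 0.0484) and lost none. The median ratio of the 8 was 0.64 with the mean of all probes, and ranged from 0.67 to 0.86 without 1 replicate. With 1 array left out 4964 to 5520 genes passed.

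Of 54 named genes tested, 46 were called, and median centring lost 33 of these calls, with the median over all genes at -0.08. Foxo4 ranged from -0.0143 to 0.0894 with 1 array left out, below 0 without array 1 (-0.0143) and without array 2 (-0.00790). Igf1r was at -0.14 with the mean of all probes. Prmt1 and Cebpd lost their calls with the processed signals and with the deposited value table. Counts for the insulin receptor to AKT list were 11 in the reported fit, 1 with median centring, and 18 to 32 with the crossed block, other pairings and the dye term. Causes were not tested.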
